A study of Mus musculus with 6 samples.

Results

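Ceramide is built from serine and palmitoyl-CoA by the enzymes of the de novo pathway, and 10 genes of this pathway were examined in the small intestinal mucosa of alk-SMase knockout (KO) and wild type (WT) mice. They were Sptlc1, Sptlc2, Kdsr, Cers2, Cers4, Cers5, Cers6, Degs1, Degs2 and Ugcg. The genes were chosen by name, for their place in the pathway, with earlier results of these data known. Of the 22700 genes of the table, 12402 could be placed on a row of values, and 9 of the 10 pathway genes were among them. Cers4 was not placed. RNA-seq had been run with 1 library for each of 6 mice, namely K79S, K82S, K86S from 3 KO mice and W83S, W89S, W90S from 3 WT mice. All mice were of the C57BL/6 strain, and all libraries carry the tissue label intestinal, which the methods specify as mucosa of the middle small intestine. In the KO mice exon 2 of Enpp7, the gene of alkaline sphingomyelinase (alk-SMase), had been removed by the Cre-loxP system, and no other allele or treatment is named. Age and sex are not given in the labels.

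Sphingolipids have a sphingoid base as their backbone. Serine palmitoyltransferase, of which Sptlc1 and Sptlc2 encode subunits, makes the first intermediate, ketodihydrosphingosine, and Kdsr reduces it to dihydrosphingosine. Ceramide synthases (Cers genes) attach a fatty acid whose chain length depends on the isoform, and the desaturases Degs1 and Degs2 turn dihydroceramide into ceramide or phytoceramide. Ugcg adds glucose to ceramide, the first step to the glycosphingolipids of the enterocyte brush border. Alk-SMase supplies ceramide by another route, since it releases ceramide from sphingomyelin in the gut lumen, and the comparison of KO with WT asks whether transcripts of the synthetic route differed when this enzyme was lost.

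Expression was deposited as FPKM, fragments scaled to transcript length and to the mapped reads of the library. Below, values of single libraries stand in the order K79S, K82S, K86S for KO and W83S, W89S, W90S for WT. In the deposited table the gene identifiers stood beside rows of other genes, in an order that could be undone from the ranks of 2 columns. After the genes were placed, values with at most 6 decimals were found for 99.7% of 3649 genes with a single annotated transcript and for 5.80% of 8748 genes with several, beside 33.9% and 34.3% in the table as deposited. Within 50 ranks of each placed pathway gene, 86 to 98 genes had the number of decimals that their transcripts call for, beside 48 to 63 on the rows one rank up or down.

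The libraries were not alike in cell content. Enterocyte markers were abundant in all of them, with 12870 to 19994 FPKM summed over 10 genes, among them Fabp2 and Anpep. W83S alone held much RNA of other organs, as 6 gastric markers led by Tff1 and Gkn1 made up 5.36% of its summed FPKM, and 3 pancreatic markers led by Clps and Amy2a5 made up 2.11%. In the other libraries these lists reached at most 0.000561% and 0.0170%. Y-linked Ddx3y and Eif2s3y, looked up after values had been seen, were at 0.0279 FPKM and listed at 0 in K79S, and at 2.93 to 4.01 and 5.69 to 8.16 FPKM in the others. K79S thus stood apart in Y-linked transcripts, and the sex of the mice may differ between libraries. Enpp7 itself had 605, 129 and 669.7 FPKM in KO and 406, 667 and 495 FPKM in WT, values that do not show whether exon 2 is present.

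All 9 placed genes were expressed in every library, and none of them passed the test between genotypes. Degs2, Ugcg and Cers2 were the most abundant, with means over the 6 libraries of 59.3, 41.6 and 40.4 FPKM. Sptlc2 followed with 21.3 FPKM, Sptlc1 with 13.7 FPKM and Cers6 with 13.3 FPKM. Degs1 had 8.70 FPKM, Kdsr 3.16 FPKM and Cers5 1.89 FPKM. The order of neighbours held in all 6 libraries for Degs2 over Ugcg, Cers2 over Sptlc2, Sptlc2 over Sptlc1 and Degs1 over Kdsr. Cers2 and Sptlc2 were nearly equal in K82S, however, at 31.5 and 31.4 FPKM. The order of Ugcg and Cers2 and that of Sptlc1 and Cers6 held in 4 of 6 libraries only, and Cers6 over Degs1 and Kdsr over Cers5 held in 5 of 6, so these 4 pairs were not separated beyond their spread.

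**Figure D1:**
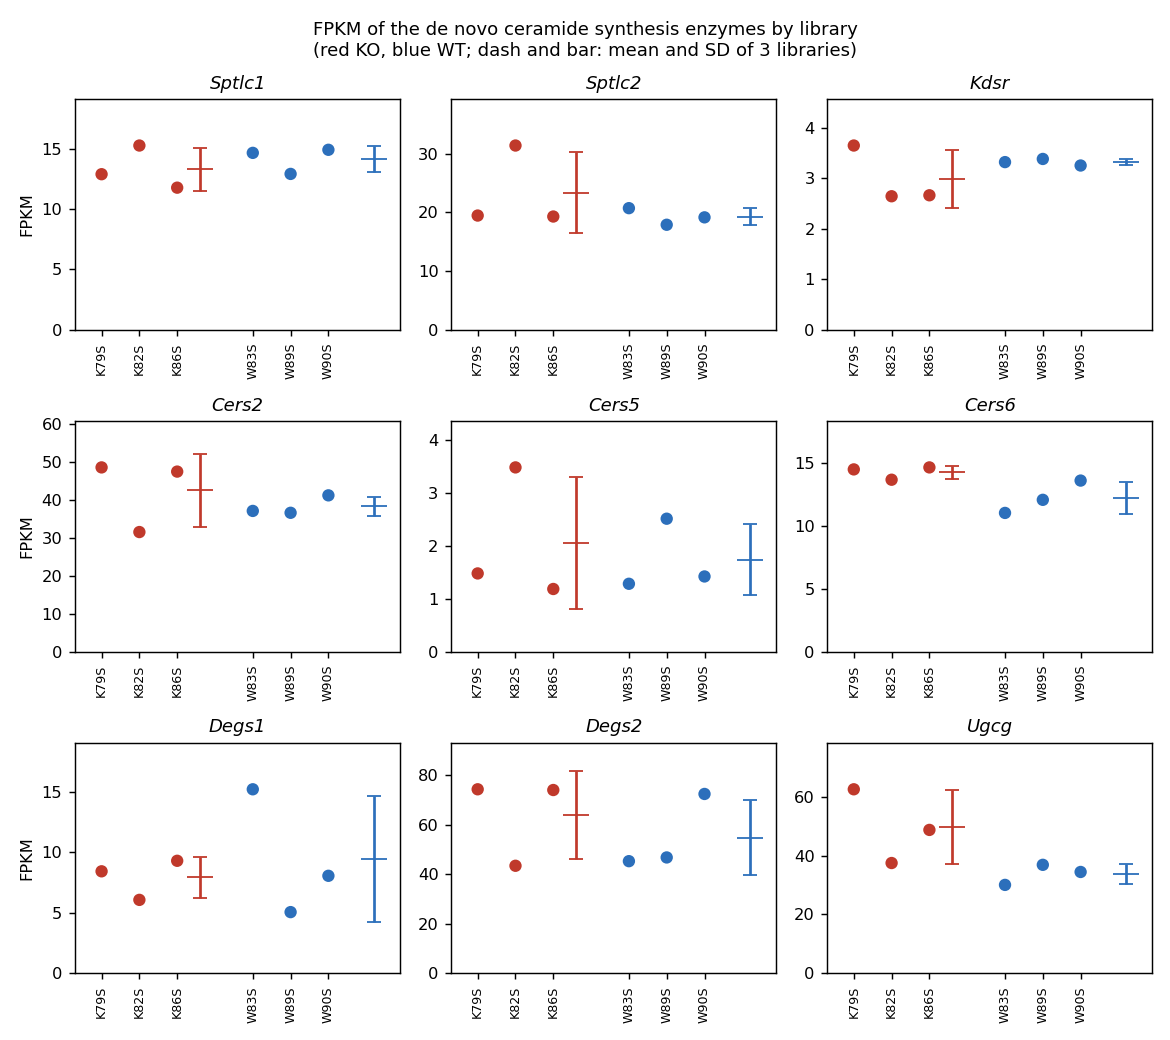
FPKM of the 9 placed enzymes in each library, with KO libraries as red points and WT libraries as blue points. The dash and bar beside each group are the mean and SD of 3 libraries, and each vertical axis starts at 0. Red and blue points are apart for Cers6 and Ugcg, and the lowest KO point of Ugcg, 37.5 FPKM, lies just above the highest WT point, 36.8 FPKM.

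KO was compared with WT by limma on log2(FPKM + 1), over 13089 rows with an FPKM of at least 1 in more than 1 library. To pass, a row needed a fold change beyond 1.5 in either direction together with adjusted p under 0.05. Of the 9 enzymes, 0 passed in limma, while 1 of all rows did (0.00764%). At an unadjusted p under 0.05 there were also 0 of the 9, beside 12.5% of all rows. The log2 fold change, KO minus WT on this scale, was above 0 for 6 enzymes and below 0 for 3. It was above 0 for 42.3% of all rows. The median of the enzymes was 0.12, and the median of all rows was -0.06. The genotypes did not overlap, with KO higher, for 2 of the 9 (Cers6 and Ugcg), an arrangement that 5.9% of all rows had, and with KO lower for 0 of the 9, beside 11.3% of all rows. With 3 libraries against 3, the exact two-sided permutation test cannot give less than p = 0.1, which is the value for Cers6 and Ugcg. When each library was scaled to the same summed FPKM, the median of all rows moved by 0.14 to 0.08. All 9 enzymes were then above 0, beside 59.9% of all rows. In that scaling Sptlc1 was at 0.084, Kdsr at 0.018 and Degs1 at 0.041, near or under the median of all rows.

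**Figure D2:**
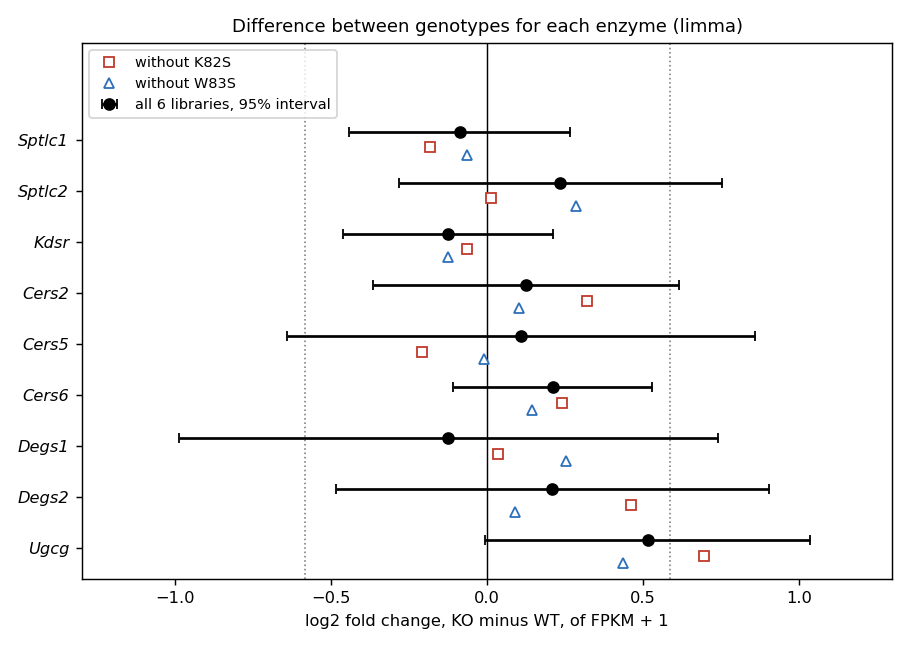
log2 fold change (KO minus WT, FPKM + 1) of each enzyme. Black points with bars are the estimates from all 6 libraries with the 95% interval from limma, red squares leave out K82S, blue triangles leave out W83S, and dotted lines mark a fold of 1.5. Every black interval includes 0, and that of Ugcg runs from -0.01 to 1.04.

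The first step of the pathway had a steady subunit and one that peaked in a single library. Sptlc1 encodes the subunit common to serine palmitoyltransferase complexes. It lies on chromosome 13 (minus strand, 53332748 to 53377397 in GENCODE M21 on mm10/GRCm38, as for all genes below). It had 12.9, 15.2 and 11.8 FPKM in KO and 14.6, 12.9 and 14.9 FPKM in WT. The groups overlapped, with K86S lowest and K82S highest. KO minus WT was, on the log2 scale, -0.09 (standard error (SE) 0.15, 95% interval -0.44 to 0.27, adjusted p = 0.821 in limma).

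Sptlc2, which carries the catalytic lysine of the enzyme, lies on chromosome 12 (minus strand, 87305058 to 87388355). Its FPKM was 19.5, 31.4 and 19.3 in KO and 20.7, 17.9 and 19.2 in WT. K82S stood above the rest, and the other 5 libraries were close together. The log2 fold change of 0.23 (SE 0.22, 95% interval -0.28 to 0.75, adjusted p = 0.663 in limma) fell to 0.01 without K82S.

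The balance of the subunits can be read within each library. Sptlc2 made up 60.2%, 67.3% and 62.2% of the summed FPKM of Sptlc1 and Sptlc2 in KO and 58.6%, 58.1% and 56.3% in WT. All KO shares lay above all WT shares, with means of 63.2% ± 3.68 and 57.7% ± 1.24 (SD, n = 3), and the nearest values were 60.2% in K79S and 58.6% in W83S. A share within a library does not move with the scaling of that library. It was chosen among 5 shares and was not tested.

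The 250 bases before the RefSeq start of these genes, and of Degs2 as the most abundant enzyme, are given for comparison (GRCm38.p6, minus strand). Capitals mark the GC box GGGCGG and the CCAAT box in either orientation, which do not overlap here. The windows are chr13:53377362-53377611 for Sptlc1, chr12:87388356-87388605 for Sptlc2 and chr12:108702307-108702556 for Degs2.
Sptlc1: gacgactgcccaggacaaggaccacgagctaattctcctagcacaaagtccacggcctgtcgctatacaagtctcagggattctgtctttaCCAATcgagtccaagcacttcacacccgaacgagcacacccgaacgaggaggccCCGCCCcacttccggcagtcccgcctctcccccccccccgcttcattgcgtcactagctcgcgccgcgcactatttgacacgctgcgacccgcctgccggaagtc
Sptlc2: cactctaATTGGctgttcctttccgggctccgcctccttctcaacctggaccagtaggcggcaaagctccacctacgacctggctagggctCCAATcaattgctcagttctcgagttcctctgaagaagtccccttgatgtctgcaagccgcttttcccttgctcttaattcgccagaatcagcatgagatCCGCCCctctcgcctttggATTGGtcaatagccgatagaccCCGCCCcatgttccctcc
Degs2: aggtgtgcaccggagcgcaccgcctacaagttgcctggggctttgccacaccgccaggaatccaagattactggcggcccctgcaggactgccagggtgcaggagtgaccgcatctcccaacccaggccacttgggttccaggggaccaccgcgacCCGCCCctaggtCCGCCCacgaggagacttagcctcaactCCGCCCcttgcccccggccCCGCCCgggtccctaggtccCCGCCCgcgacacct

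Sptlc1 had 1 GC box and 1 CCAAT box in this stretch, Sptlc2 had 2 and 3, and Degs2 had 5 and 0. All 10 genes had a RefSeq promoter window, from 250 bases before to 50 after the start, and Cers2 had 2 such windows. A GC box was found in windows of 8 of the 10 genes, beside 35.7% of all 32851 windows, and a CCAAT box in 4, beside 37.4%. The E box CACGTG was in windows of 3 genes (7.15% of all windows) and the nuclear receptor half-site AGGTCA in 1 (16.3%). The letters TATAAA (13.6% of all windows) and TCACNCCAC, a sterol regulatory element (1.24%), were in 0 of them. The GC content of the 11 windows was 54.3% to 81.3%, and the median of all windows was 52.7%. A match of letters is not a bound site.

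Kdsr, the reductase of the second step, was low and nearly constant in WT. It lies on chromosome 1 (minus strand, 106720459 to 106759727). It had 3.65, 2.65 and 2.67 FPKM in KO and 3.32, 3.39 and 3.26 FPKM in WT. K82S and K86S lay below all WT libraries and K79S above them, so the groups overlapped. The fitted log2 fold change was -0.13 (SE 0.14, 95% interval -0.46 to 0.21, adjusted p = 0.719 in limma).

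Among the placed ceramide synthases, Cers2 transcripts were the most numerous, Cers6 came next and Cers5 was rare. Cers2, whose product prefers very long acyl chains, lies on chromosome 3 (plus strand, 95314791 to 95323599). Its FPKM was 48.5, 31.5 and 47.4 in KO and 37.1, 36.6 and 41.2 in WT. K79S and K86S were the highest libraries and K82S the lowest. Limma put the log2 fold change at 0.12 (SE 0.20, 95% interval -0.37 to 0.61, adjusted p = 0.818 in limma), and without K82S it was 0.32 with an adjusted p of 0.204 from limma. Exons of Setdb1 and 6330562C20Rik overlap those of Cers2 on the other strand. Whether counting used strand is not given in the sources used here, so reads of these genes may be mixed.

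Cers6, which makes ceramides with long acyl chains, lies on chromosome 2 (plus strand, 68861441 to 69114282). Its FPKM was 14.5, 13.7 and 14.7 in KO and 11.0, 12.1 and 13.6 in WT. The genotypes did not overlap, although K82S and W90S were nearly equal. KO had a mean of 14.3 ± 0.527 FPKM, and WT one of 12.3 ± 1.297 FPKM (SD over 3 libraries). With a log2 fold change of 0.21 (SE 0.13, 95% interval -0.11 to 0.53, adjusted p = 0.506 in limma), Cers6 did not pass the test. With libraries scaled by median ratio, the groups of Cers6 overlapped.

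Cers5, on chromosome 15 (minus strand, 99734881 to 99772885), also serves long acyl chains. Its FPKM was 1.48, 3.48 and 1.18 in KO and 1.28, 2.51 and 1.42 in WT. K82S and W89S, 1 library of each genotype, were the highest. In limma its log2 fold change was 0.11 (SE 0.31, 95% interval -0.64 to 0.86, adjusted p = 0.903 in limma) and turned to -0.21 without K82S. Cers4, on chromosome 8 (plus strand, 4493026 to 4531680), was listed in the table but its row could not be settled. The 50 rows on each side of its rank had 0.876 to 0.90 FPKM in W83S.

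Of the summed FPKM of Cers2, Cers5 and Cers6, the share of Cers2 was 75.2%, 64.7% and 75.0% in KO and 75.0%, 71.5% and 73.2% in WT. Cers6 held 22.5%, 28.1% and 23.2% in KO and 22.4%, 23.6% and 24.2% in the WT libraries. Cers5 held 7.14% in K82S, 4.90% in W89S and between 1.87% and 2.59% in the other 4. The makeup of K82S thus stood apart from that of the other KO libraries, while the groups overlapped for each isoform. The mean share of Cers2 differed by -1.62 percentage points (KO minus WT), less than the SD of 5.98 among KO libraries.

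**Figure D3:**
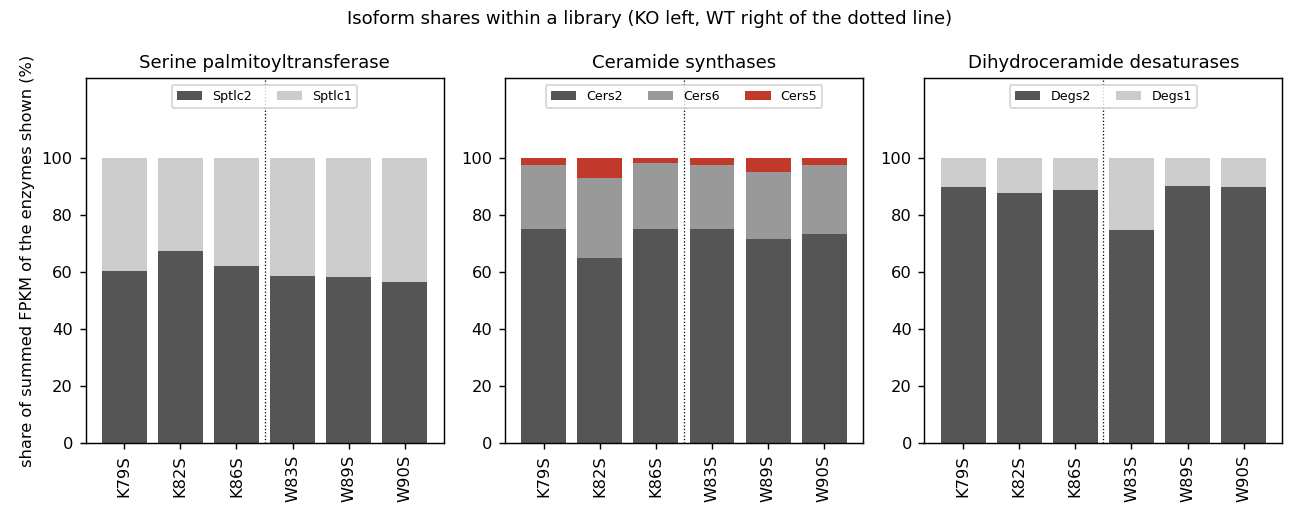
Stacked bars of the share (%) that each enzyme holds in the summed FPKM of the placed enzymes of its step, for each library. The share of Sptlc2 was between 60.2% and 67.3% in KO and between 56.3% and 58.6% in WT, Cers5 was largest in K82S, and Degs1 was largest in W83S.

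The desaturases were dominated by Degs2. This gene, whose product can also hydroxylate dihydroceramide and so make phytoceramide, is known for its high expression in the intestine. It lies on chromosome 12 (minus strand, 108678711 to 108702315). It had 74.2, 43.4 and 73.9 FPKM in KO and 45.2, 46.7 and 72.3 FPKM in WT. K79S, K86S and W90S were high and K82S, W83S and W89S low, so each level held libraries of both genotypes. KO minus WT was, on the log2 scale, 0.21 (SE 0.29, 95% interval -0.49 to 0.90, adjusted p = 0.778 in limma), and 0.46 without K82S (adjusted p = 0.294 in limma). Exons of Evl overlap Degs2 on the other strand, and reads of this gene may be mixed in.

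Degs1, the broadly expressed desaturase, lies on chromosome 1 (minus strand, 182275772 to 182282804). Its FPKM was 8.44, 6.08 and 9.31 in KO and 15.2, 5.07 and 8.07 in WT. The highest and the lowest library were both WT. The log2 fold change of -0.12 (SE 0.36, 95% interval -0.99 to 0.74, adjusted p = 0.902 in limma) turned to 0.25 without W83S, the library with gastric and pancreatic RNA. Degs2 held 74.8% of the summed FPKM of the 2 desaturases in W83S and 87.7% to 90.2% in the other 5 libraries. The part of the gastric and pancreatic RNA in the Degs1 level of W83S was not tested.

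Ugcg, the glucosylceramide synthase, had the widest difference between the genotypes. It lies on chromosome 4 (plus strand, 59189257 to 59222833). Its FPKM was 62.5, 37.5 and 48.7 in KO and 30.03, 36.8 and 34.4 in WT. Every KO value was above every WT value, though K82S and W89S were nearly equal. The KO mean of 49.5 ± 12.5 FPKM was 1.47 times the WT mean of 33.8 ± 3.45 FPKM (SD over 3 libraries). Its log2 fold change of 0.51 (SE 0.22, 95% interval -0.01 to 1.04, adjusted p = 0.393 in limma) did not pass the test. It was 0.70 without K82S (adjusted p = 0.0673 in limma) and 0.34 without K79S, the library with the highest Ugcg and the lowest Y-linked values (adjusted p = 0.76 in limma). The part of sex in the Ugcg level of K79S was not tested. With libraries scaled by median ratio the value was 0.60 and the groups overlapped. The adjusted p of Ugcg was between 0.0673 and 0.76 over 14 alternatives and passed in 0 of them. In bulk RNA, more cells of a type and more RNA per cell cannot be told apart.

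K82S weighed on most of these values. It was the highest or the lowest library for 6 of the 9 enzymes, and for 35.2% of all rows. Sptlc1, Sptlc2 and Cers5 were highest in it, and Kdsr, Cers2 and Degs2 were lowest. Without K82S 0 of the 9 enzymes passed in limma, while 9.28% of all rows did, and 1 of the 9 (Ugcg) had an unadjusted p under 0.05, beside 25.7% of all rows. The genotypes then did not overlap, with KO higher, for 4 of the 9 (Cers2, Cers6, Degs2 and Ugcg), beside 11.9% of all rows. KO was lower without overlap for 1 of the 9 (Sptlc1), beside 32.3% of all rows.

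Markers of gut region and cell type moved between the same libraries. Markers of the proximal small intestine, led by Apoa4 and Fabp1, were low in K82S and W89S, with sums of 3884 and 4785 FPKM, beside 7875 to 14730 FPKM in the remaining 4. Apoa4 and Fabp1 made up most of each sum. They were lowest in K82S, as were Lct, Gata4 and Pdx1. Slc40a1 of this list went the other way, with 5.11 FPKM in K82S beside 0.617 and 2.03 FPKM in K79S and K86S. Markers of the distal small intestine, led by Mep1b and Slc51a, summed to 2612 FPKM in K82S, to 1457 and 1458 FPKM in K79S and W89S, and to 894 to 1053 FPKM in the other 3. Of the 7 distal genes 5 were placed. Mep1b, Slc51a and Slc51b were highest in K82S, and Gata5 and Cubn were highest in K79S. K82S and W89S were also the libraries with the most Cers5. The 7 Paneth cell markers, led by Defa24 and Lyz1, summed to 609.5 and 1188 FPKM in K79S and K86S, where Ugcg, Cers2, Cers6 and Degs2 were highest. They summed to between 2343 and 8541 FPKM elsewhere. Degs2 was nearly as high in W90S (72.3 FPKM), where the Paneth markers summed to 6508 FPKM. Leukocyte markers, led by Gzma and Lyz2, summed to 169 to 336 FPKM in KO and 152 to 252 FPKM in WT, and 6 of the 8 lay higher in all KO libraries, beside 5.9% of all rows. Goblet cell markers, led by Tff3 and Zg16, summed to 6905 to 13092 FPKM in KO and 6937 to 12652 FPKM in WT. Of these 7 genes, 2 lay higher and 1 lay lower in all KO libraries, beside 5.9% and 11.3% of all rows. Crypt and proliferation markers, led by Olfm4 and Pcna, summed to 24.1 to 60.4 FPKM in KO and 61.0 to 109.6 FPKM in WT. These sums did not overlap, though K82S and W83S were nearly equal. As a share of the summed FPKM of the library, K82S (0.0130%) lay above W83S (0.0126%), so the genotypes overlapped. Of the 5 tested genes, 2 lay lower in all KO libraries, beside 11.3% of all rows. Smooth muscle markers, led by Mylk and Acta2, stayed under 58 FPKM in all libraries, and B and plasma cell markers, led by Igha and Jchain, summed to 727 to 1238 FPKM in KO and 686 to 747 FPKM in WT. Of the 10 enterocyte markers, 1 (Anpep) lay higher in all KO libraries, beside 5.9% of all rows, and 0 lay lower, beside 11.3%. Anpep had 2249 to 3977 FPKM in KO and 1504 to 1867 FPKM in WT. The part of these differences in the levels of the enzymes was not tested.

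**Figure D4:**
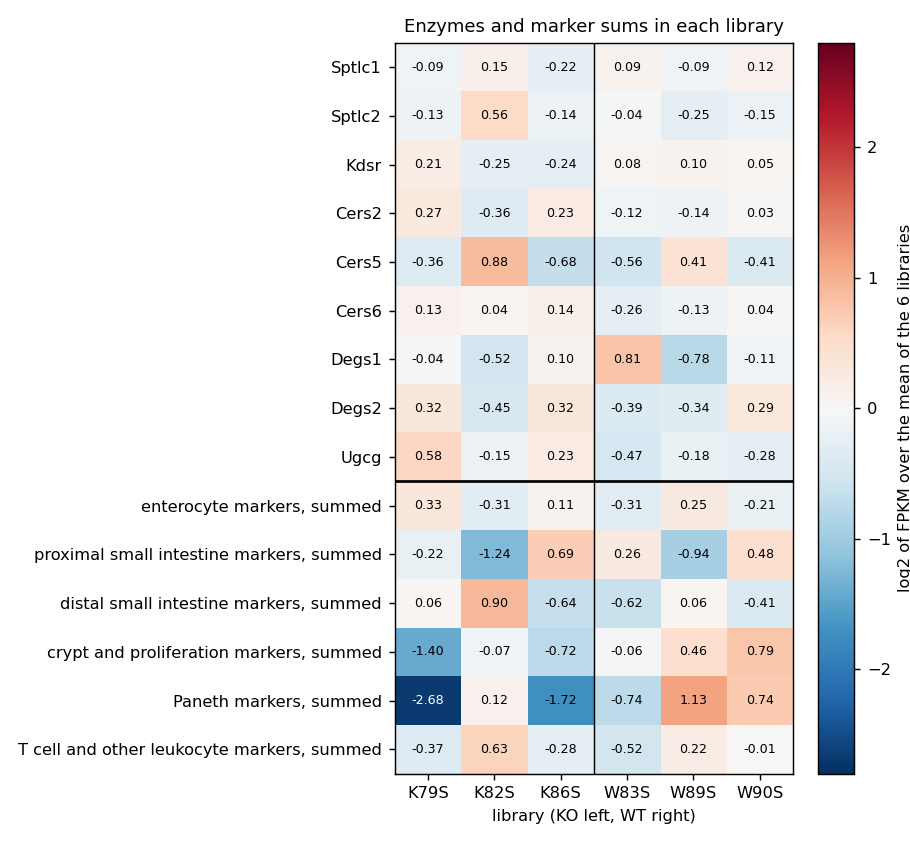
log2 of FPKM over the mean of the 6 libraries, for the 9 enzymes (upper rows) and for the summed FPKM of marker lists (lower rows), with KO libraries on the left and WT libraries on the right. Cers5 was at 0.88 in K82S and 0.41 in W89S, where the proximal markers were at -1.24 and -0.94.

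Other genes of the pathway were read from 4 lists with 39 genes, of which 31 were placed and 30 tested. In limma 0 of the 30 passed, with 3 at an unadjusted p under 0.05, a lower share than the 12.5% of all rows. The log2 fold change was above 0 for 13 and below 0 for 17, with a median of -0.08. The groups did not overlap for 1 gene that was higher and 2 genes that were lower in KO, beside the 5.9% and 11.3% of all rows given above. Without K82S 2 of the 30 passed, both lower in KO, beside 9.28% of all rows, of which 1133 of 1184 were lower. Pooled over the lists, the counts of genes that passed, had an unadjusted p under 0.05 or did not overlap were at or under the shares of all rows. Pooling hides lists that went opposite ways. The log2 fold change was above 0 for 8 of 10 genes that carry or convert ceramide. It was below 0 for 12 of 15 genes that supply acyl-CoA and serine. This contrast was not tested.

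Partners of serine palmitoyltransferase gave 6 placed genes, of which 5 were tested and 0 passed. Their median log2 fold change was -0.07. Sptssa, a small subunit that stimulates the enzyme, had 68.3, 63.4 and 72.0 FPKM in KO and 68.0, 78.5 and 87.4 FPKM in WT. Of the Ormdl genes, whose products restrain the enzyme, Ormdl3 was lowest in K82S with 34.9 FPKM and had 74.3 and 76.0 FPKM in K79S and K86S, beside 48.5 to 58.8 FPKM in WT. Ormdl2 ran from 13.3 to 22.7 FPKM. Sptssb, the other small subunit and named after its values were seen, had 70.8 FPKM in W83S and 0.162 to 0.912 FPKM elsewhere, and did not pass the filter. Sptlc3, Cers1 and Cers3, the remaining isoforms of these enzymes, were not placed.

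Genes that carry ceramide or convert it gave 10 tested genes, of which 0 passed. Of these, 8 were above 0, beside 42.3% of all rows, with a median log2 fold change of 0.14. Gltp, a transfer protein for glycolipids, had 80.5 to 94.1 FPKM in KO and 59.3 to 88.5 FPKM in WT. B4galt5 and B4galt6, which make lactosylceramide from the product of Ugcg, both had their lowest value in K82S, 36.7 and 20.6 FPKM. In K79S and K86S B4galt5 had 89.4 and 65.0 FPKM and B4galt6 37.7 and 40.6 FPKM, against 42.4 to 63.8 FPKM and 21.5 to 30.5 FPKM in WT. Sgms2, a sphingomyelin synthase, was the gene of this list whose KO libraries all lay above the WT libraries. It had 5.02, 5.24 and 4.18 FPKM in KO and 3.65, 3.89 and 3.36 FPKM in WT (log2 fold change 0.32, SE 0.13, adjusted p = 0.393 in limma). It is named here after its values were seen. Fa2h, the fatty acid hydroxylase, likewise named after its values were seen, had 19.8 FPKM in W83S and at most 1.10 FPKM elsewhere, the library pattern of Sptssb.

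Genes that supply acyl-CoA and serine gave 15 tested genes, of which 0 passed, with 12 below 0 and a median log2 fold change of -0.31. Of all rows, 42.3% were above 0. Acsl5, an acyl-CoA synthetase of enterocytes, ran from 252 to 508 FPKM with its lowest value in K82S. Dbi, the acyl-CoA binding protein, had 98.7, 134.9 and 107 FPKM in KO and 237, 120 and 174 FPKM in WT. Elovl1, an elongase for very long chains, had 54.6, 66.5 and 32.1 FPKM in KO and 43.4, 69.1 and 38.8 FPKM in WT.

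The genes that passed only when libraries were left out were Phgdh, Shmt1, Psat1 and Shmt2. Phgdh, which opens serine synthesis, had 0.416, 2.496 and 0.392 FPKM in KO and 1.16, 1.59 and 1.799 FPKM in WT. Its log2 fold change was -0.39 with all libraries (adjusted p = 0.668 in limma), and -0.83 without K82S, where it passed. Shmt1, which interconverts serine and glycine, had 0.996, 2.63 and 2.02 FPKM in KO and 3.52, 3.94 and 4.30 FPKM in WT. Every KO value was below every WT value, with a log2 fold change of -0.81 (SE 0.23, adjusted p = 0.393 in limma), or -1.0 without K82S, where it passed. Its call was lost again without K82S and W83S together (adjusted p = 0.070 in limma). In that fit, where 8.88% of all rows passed, Phgdh (adjusted p = 0.036), Psat1 (adjusted p = 0.036) and Shmt2 (adjusted p = 0.048) passed in limma. Psat1, a further enzyme of serine synthesis, had 0.431, 1.75 and 0.253 FPKM in KO and 1.05, 2.14 and 1.66 FPKM in WT. Shmt2, the mitochondrial counterpart of Shmt1, had 2.72, 3.87 and 2.84 FPKM in KO and 3.81, 5.14 and 5.34 FPKM in WT. For both, K82S was the highest KO library and overlapped WT. The other gene that lay lower in all KO libraries was Hacd3, named after its values were seen, with 10.6 to 12.0 FPKM in KO and 12.03 to 18.6 FPKM in WT.

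**Figure D5:**
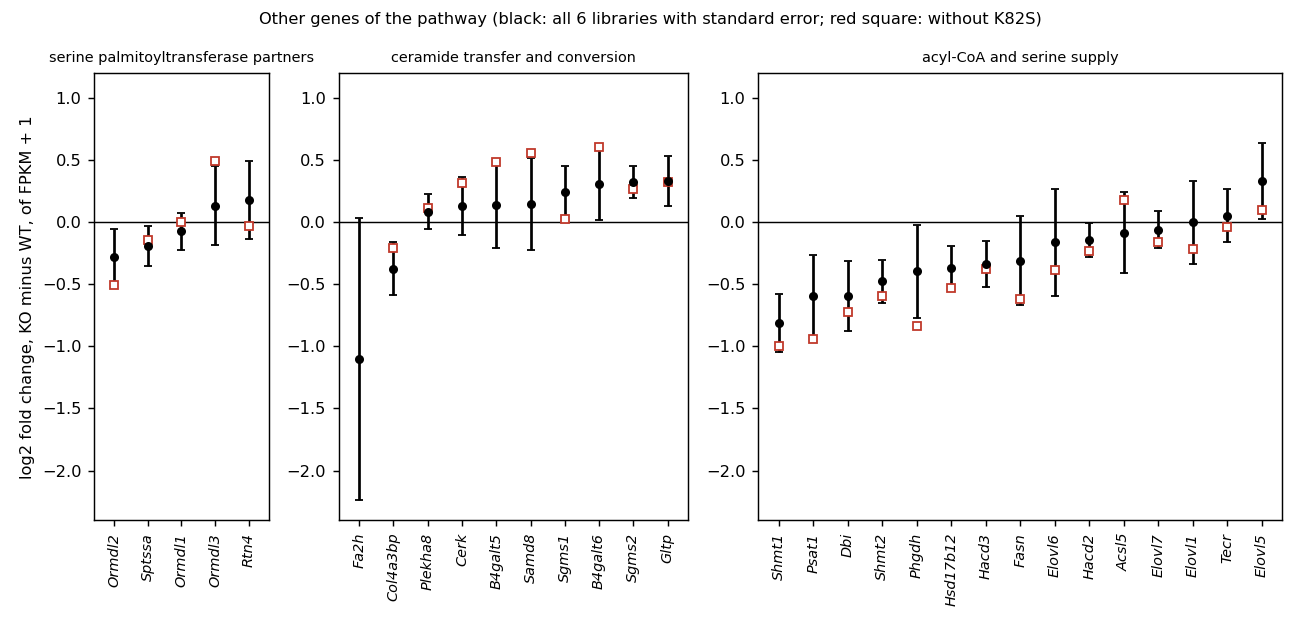
log2 fold change (KO minus WT, FPKM + 1) of the 30 tested genes from the lists of the pathway. Black points with bars are the estimate and SE from all 6 libraries, and red squares leave out K82S. Of the 15 genes that supply acyl-CoA and serine 12 lie below 0, down to -0.81 for Shmt1. Of all rows, 42.3% lie above 0.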

How the data were processed

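Single-end reads of 50 bp were sequenced by the authors. Adapters were removed (trim-galore), HISAT2 served for mapping and StringTie for transcript assembly, with mm10 as the build. The deposited values are FPKM, 1 column per library, with 0 columns that could not be mapped to a sample. Tool versions, annotation and strand handling are not given in the sources used here. FPKM holds no read counts, so the number of reads behind a single value is not given. The study does list the mapped reads of each library, fewest in K86S and next fewest in K79S. They were not used here. Precision rests on the spread of 3 libraries per genotype, which are separate mice.

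Identifiers were ranked by the K79S value beside them, rows by W83S, and fixed rank offsets gave each gene its row; genes outside the offset ranges were left out. Symbols were from GENCODE M21 and promoter windows from RefSeq (GRCm38.p6). A row was kept unless more than 4 of its libraries had FPKM below 1, which left 13089. log2(FPKM + 1) was fitted over all kept rows, named or not, with limma 3.58.1 in R 4.3.3 (mean-variance trend, Benjamini-Hochberg adjustment over all rows, no covariate). The code was tested on simulated data. Summaries and plots used Python 3.11.15, pandas 2.3.3, scipy 1.17.1 and matplotlib 3.10.9.

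The text names all members, the 3 most abundant placed genes of each pathway list and any that passed with all or fewer libraries, the remaining isoforms Sptlc3, Cers1 and Cers3, the 2 most abundant placed genes of each marker list, and Enpp7. Sptssb, Sgms2, Fa2h, Hacd3, Ddx3y and Eif2s3y were added after their values were seen. So were the regional markers Slc40a1, Lct, Gata4, Pdx1, Slc51b, Gata5 and Cubn. The members, the 4 pathway lists and the 11 marker lists were chosen with earlier results of these data known.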

Additional observations from a re-analysis of the deposited data

How the results depend on the processing

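The 9 placed enzymes had 0 genes past the thresholds under all 14 alternatives of the fit and on the rows beside their own. Of their 126 log2 fold changes under these alternatives, 116 kept the sign of the reported value and 10 turned. With libraries scaled to the same summed FPKM, Sptlc1 turned to 0.084, Kdsr to 0.018 and Degs1 to 0.041. Cers5 was -0.033 with array weights, -0.33 without K82S and W83S together, and between -0.21 and 0.31 when single libraries were left out. Degs1 was 0.41 without K82S and W83S together and between -0.46 and 0.25 when single libraries were left out. Why these values turned was not tested.

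Over all rows, 1 passed in the reported fit, 0 with pseudocounts of 0.1 and of 0.01, 2 with array weights, 1111 without K82S and W83S together, and 0 to 1184 without single libraries, where 1184 is the fit without K82S and the others gave 0 or 1. Enzymes with no overlap between genotypes numbered 2 as reported, 7 without K82S and W83S together, and 2 to 5 without single libraries. With scaling by median ratio there was 1 (Sptlc2), beside 19.9% of all rows. With scaling to the same summed FPKM there were 3 (Sptlc2, Cers6 and Ugcg), beside 20.2% of all rows. Of all rows, 52.8% had no overlap without K82S and W83S together, and 22.6% to 44.2% without single libraries, the highest without K82S, beside 17.2% as reported. Fewer libraries make overlap less likely by construction. Pathway list genes that passed numbered 3 without K82S and W83S together and 0 to 2 without single libraries.

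The values rest on the row given to each gene. The row one rank up in W83S belongs to another gene. There log2 fold changes were 0.11 for Sptlc1, -0.68 for Sptlc2, -0.15 for Cers2 and -0.57 for Cers5. They were -0.040 for Cers6, 0.0058 for Degs1 and -0.050 for Degs2. All of these turned sign, while Kdsr at -0.75 and Ugcg at 0.11 kept theirs. On the row one rank down, those that turned were -0.74 for Cers2, -0.13 for Cers6, 0.12 for Degs1, -0.42 for Degs2 and -0.061 for Ugcg. Sptlc1 at -0.40, Sptlc2 at 0.034, Kdsr at -0.036 and Cers5 at 0.13 kept their sign. Either shift left 1 enzyme with no overlap. The difference in share, KO minus WT in percentage points, became -14.4 for Sptlc2 one rank up, and -9.26 for Cers2, 7.32 for Cers6 and -8.08 for Degs2 one rank down. No paired analysis was possible because the labels give no numbers that pair KO with WT mice. The study describes its samples as matched, but which mice formed a pair is not given in the sources used here. The design is limited by 3 mice per genotype and by values without read counts. It is also limited by 3 libraries that stood apart, K82S, W83S and, in Y-linked transcripts, K79S.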
